A study of Homo sapiens with 12 samples.

Results

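PIM1, PIM2, PIM3, CISH, SOCS1, SOCS2, SOCS3, BCL6 and OSM are genes that cytokine and growth factor receptors regulate through the transcription factor STAT5. They were taken by gene name from the count table, where they are 9 of 57353 listed names, and all 9 were among the 12998 genes tested after the filter on low counts. RNA had been sequenced from MOLM-13 cells, an established human acute myeloid leukemia (AML) line that carries an internal tandem duplication of the receptor kinase FLT3 (FLT3-ITD), and the labels give the same wild-type genotype for every sample. The 4 groups of 3 libraries were cells in RPMI with vehicle (DMSO), cells in RPMI with 3 nM quizartinib (AC220), cells in hBMSC-CM with vehicle and cells in hBMSC-CM with 3 nM quizartinib. Treatment lasted 15 hr in each group. RPMI is the regular serum-supplemented medium, hBMSC-CM is RPMI mixed with medium conditioned by the human bone marrow stromal line HS-5, and quizartinib inhibits the FLT3 kinase. The comparisons ask which of these genes quizartinib moves in each medium, which of them hBMSC-CM moves with and without the drug, and whether the drug response differs between the media. A single leukemia line and a single stromal line were used. The labels do not say whether the replicates were separate cultures, and the study's reporting checklist calls all of its replicates biological. The p-values measure the spread between these libraries.

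STAT5 is a latent transcription factor that is phosphorylated by JAK kinases below cytokine receptors, or by an active FLT3-ITD, and then enters the nucleus as a dimer and binds palindromic TTC and GAA elements. Among its targets are survival kinases of the PIM family and the SH2 proteins CISH and SOCS, which bind activated receptors or JAKs and shut the signal off in a negative feedback loop. STAT5 also represses genes, BCL6 among them, and it can induce the cytokine gene OSM. Several of these genes, SOCS3 in particular, also respond to STAT3 below gp130, the shared receptor of the interleukin-6 family, so a change in RNA does not name the factor behind it. The data hold RNA levels only, and phosphorylation of STAT5 was not measured in them.

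The STAT5 element can be read from the promoters. RefSeq windows of 250 bases upstream of the start site (GRCh38.p14) were found for 7 of the 9 genes, all but SOCS2 and OSM. They were searched for TTCNNNGAA, which reads the same on both strands, and for the wider-spaced TTCNNNNGAA. The CISH window held 4 matches to TTCNNNGAA and the BCL6 window 1, while PIM1, PIM2, PIM3, SOCS1 and SOCS3 held 0. For SOCS3 the 2 windows searched were chr17:78360926-78361175 and chr17:78359668-78359917 on the minus strand. Neither adjoins the start of SOCS3 in the coordinates given below (78360077, minus strand), so the bases just upstream of that start were not searched. The wider-spaced element was in 0 of the windows of these genes. At least 1 match to TTCNNNGAA stood in 5.52% of the 8998 promoters of tested genes and in 6.57% of all 35116 promoters of the table, and at least 4 matches stood in 2 of the 8998. The CISH window is shown as the richest of these promoters, BCL6 as the other one with a match, and PIM1 as a gene that took the same order of groups as CISH with no match in this window. The windows lie at chr3:50611775-50612024 on the minus strand (CISH), chr3:187745469-187745718 on the minus strand (BCL6, the first of 2 RefSeq windows) and chr6:37169902-37170151 on the plus strand (PIM1), and capitals mark the matches to TTCNNNGAA:
CISH: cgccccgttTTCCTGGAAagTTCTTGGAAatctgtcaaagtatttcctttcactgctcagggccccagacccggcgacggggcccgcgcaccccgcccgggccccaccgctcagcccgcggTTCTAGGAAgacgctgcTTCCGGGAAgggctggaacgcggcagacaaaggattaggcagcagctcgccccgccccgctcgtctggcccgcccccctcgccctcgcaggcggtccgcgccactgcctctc
BCL6: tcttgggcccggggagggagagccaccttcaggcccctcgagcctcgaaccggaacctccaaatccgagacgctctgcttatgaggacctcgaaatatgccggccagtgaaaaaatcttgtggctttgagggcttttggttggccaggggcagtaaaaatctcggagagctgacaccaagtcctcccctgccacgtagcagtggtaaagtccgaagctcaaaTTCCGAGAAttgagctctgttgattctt
PIM1: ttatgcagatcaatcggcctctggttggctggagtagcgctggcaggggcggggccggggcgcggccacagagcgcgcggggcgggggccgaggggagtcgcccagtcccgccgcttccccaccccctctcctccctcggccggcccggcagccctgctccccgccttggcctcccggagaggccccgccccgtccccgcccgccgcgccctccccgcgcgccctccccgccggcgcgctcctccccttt
Counted back from the start site, the matches of CISH began 241, 230, 129 and 112 bases upstream, as TTCCTGGAA, TTCTTGGAA, TTCTAGGAA and TTCCGGGAA. The match of BCL6, TTCCGAGAA, began 28 bases upstream of the RefSeq start. By the coordinates given below (187721377 to 187745725, minus strand) the whole BCL6 window lies inside the gene. The bases upstream of the start at 187745725 were not searched. A match describes these letters in this window and is not evidence of binding, and a window without one says nothing about elements elsewhere in the gene.

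Total counts lay between 19966546 and 31546104 per library, so that 3 counts, the limit that a count of 0 allows, equal 0.0989 to 0.150 CPM for counting error only (CPM are counts relative to the library total, here scaled by TMM). The 9 genes had between 19 and 5937 counts per library. Replicates differed from each other by 2.66 to 10.5 chi-square units per gene over the 12 pairs, above the value near 1 that sampling alone gives, so no library was counted as a repeat of another. The share of counts on mitochondrial genes was 0.458% to 0.790% with vehicle and 0.683% to 1.10% with quizartinib, and its part in the drug responses below was not tested. All 8 markers of myeloid AML cells passed the filter, and their summed level was 1195 to 1251 CPM with vehicle and 1847 to 1870 with quizartinib in RPMI, and 1448 to 1492 and 2174 to 2349 in hBMSC-CM. The markers were divided. With quizartinib in RPMI 5 were called higher and 3 lower, beside 40.1% and 39.2% of all tested genes (calls are defined below). FLT3, at 209 and 454 CPM with vehicle and quizartinib, and PTPRC, at 270 and 535, were among the higher. CD33, CEBPA and MPO were lower, at 92.5 and 76.0, 222 and 168, and 4.10 and 3.08 CPM. Of 12 markers of stromal cells, the source of the conditioned medium, COL3A1, COL5A1, DCN, LUM, POSTN and THY1 had no count in any library, and COL1A1 and TAGLN passed the filter. COL1A1 passed only through its level with quizartinib in RPMI (4.61 CPM, against 0.992 CPM or less in the other groups). The summed level of all 12 markers, COL1A1 included, was 3.76 to 4.20 and 11.0 to 13.3 CPM with vehicle and quizartinib in RPMI. In hBMSC-CM the sum was 3.18 to 3.99 and 6.31 to 6.94 CPM, so it was not higher in the conditioned medium. Of 5 lymphoid markers NKG7 was tested, and the summed level was 14.6 to 18.3 CPM in RPMI and 20.9 to 29.4 in hBMSC-CM. The part of these marker shifts in the results below was not tested.

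FLT3 itself, the target of the drug, was at 209 ± 3.43 CPM (SD, n = 3) with vehicle and 454 ± 9.42 with quizartinib in RPMI, and at 113 ± 3.34 and 157 ± 5.87 in hBMSC-CM. The STAT5 genes moved little beside it. STAT5A was at 62.6 ± 3.72 and 84.6 ± 3.59 CPM in RPMI and at 64.1 ± 2.17 and 81.3 ± 1.07 in hBMSC-CM. STAT5B was at 78.2 ± 1.40 and 87.5 ± 0.782 CPM in RPMI and at 77.6 ± 2.68 and 87.7 ± 1.92 in hBMSC-CM. Both were higher with quizartinib in either medium, STAT5A by 0.43 and 0.34 and STAT5B by 0.16 and 0.17 on the log2 scale, and neither passed the test between the media (adjusted p of 0.294 and 0.943 with quizartinib and 0.681 and 0.889 with vehicle, Benjamini-Hochberg adjusted, from edgeR's quasi-likelihood test).

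The largest differences found among the 9 genes were between the media, although SOCS2 and BCL6 differed more with the drug. PIM3 differed about as much with the drug as between the media. Its log2 fold changes with the drug were −0.85 in RPMI and −0.67 in hBMSC-CM. Between the media they were 0.82 with quizartinib and 0.64 with vehicle. PIM1, PIM2, CISH, SOCS3 and OSM were called higher in hBMSC-CM, by 5.76-fold to 19.3-fold where both media held quizartinib and by 1.83-fold to 4.28-fold where both held vehicle. The RNA was of whole cultures, so fewer cells that express a gene and less RNA per cell cannot be told apart. In RPMI, quizartinib lowered PIM1, PIM2, PIM3, CISH and OSM and raised SOCS1, SOCS2 and BCL6. In hBMSC-CM the same drug raised PIM1, PIM2, CISH and SOCS3 and left OSM within its replicate spread, while it still lowered PIM3 and raised SOCS2 and BCL6. Below, the values of each gene are given in the order of replicates 1, 2 and 3, and a gene is called where its p from edgeR's quasi-likelihood test, Benjamini-Hochberg adjusted over all 12998 genes, was under 0.05.

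**Figure D1:**
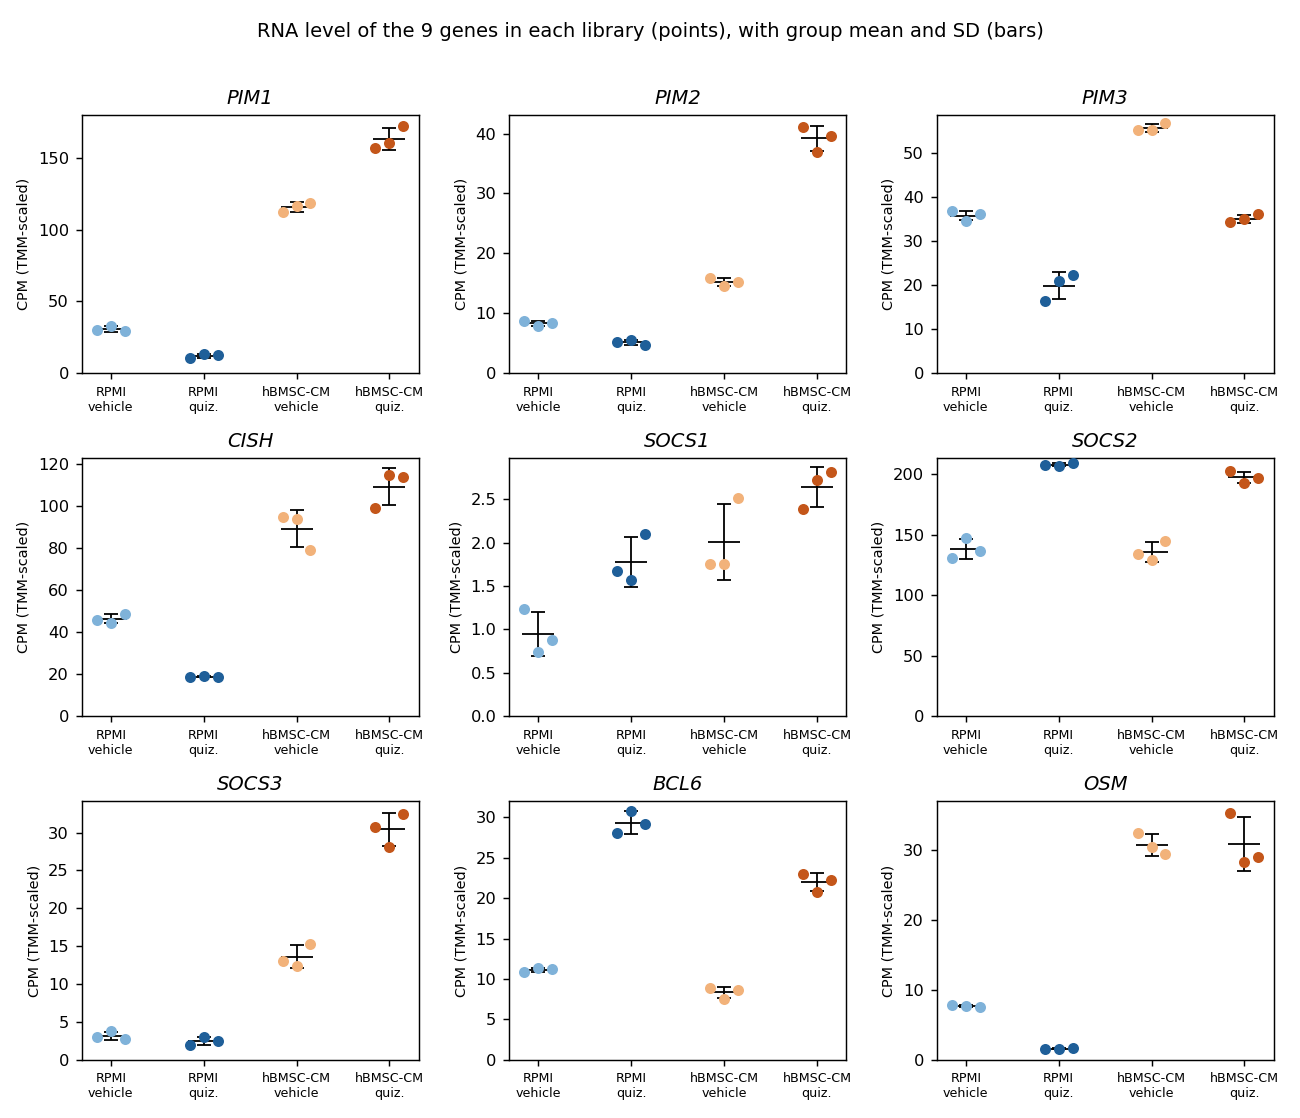
RNA level of each of the 9 genes (y axis, TMM-scaled CPM, linear from 0) in the 4 groups (x axis, quiz. is 3 nM quizartinib). Points are the 12 libraries and bars the mean and SD of 3, and the conditioned-medium groups of PIM1, PIM2, CISH, SOCS3 and OSM stand above both RPMI groups, whereas SOCS2 and BCL6 follow the drug.

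The PIM genes encode serine/threonine kinases that are active once translated, without an activating phosphorylation by another kinase, and that promote survival and cap-dependent translation. PIM1 (ENSG00000137193, chromosome 6, 37170152 to 37175428, plus strand, GRCh38) was at 30.1, 33.1 and 29.3 CPM with vehicle in RPMI and at 10.7, 13.3 and 12.5 with quizartinib. In hBMSC-CM it was at 112, 117 and 119 CPM with vehicle and at 157, 161 and 172 with quizartinib. The 4 groups did not overlap, and even the lowest vehicle library in hBMSC-CM was above every RPMI library. Quizartinib lowered PIM1 2.54-fold in RPMI (log2 fold change −1.34 ± 0.07 SE, adjusted p = 3.83e-13) and raised it 1.41-fold in hBMSC-CM (0.49 ± 0.05, adjusted p = 7.22e-08). The difference between the media was 13.4-fold with quizartinib and 3.76-fold with vehicle, and the highest level was reached with the drug present.

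PIM2 (ENSG00000102096, chromosome X, 48913182 to 48919024, minus strand) was at 8.69, 7.90 and 8.39 CPM with vehicle and at 5.28, 5.53 and 4.74 with quizartinib in RPMI. With hBMSC-CM, PIM2 was at 15.8, 14.5 and 15.2 CPM with vehicle and at 41.1, 36.9 and 39.6 with quizartinib. The order of the groups was that of PIM1 and again no group overlapped another, but the rise with the drug in hBMSC-CM was larger. It was 2.58-fold (log2 fold change 1.36 ± 0.07 SE, adjusted p = 3.75e-13), against a 1.60-fold fall in RPMI (−0.68 ± 0.09, adjusted p = 1.15e-06). Between the media PIM2 differed 7.52-fold with quizartinib and 1.83-fold with vehicle.

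PIM3 (ENSG00000198355, chromosome 22, 49960768 to 49964072, plus strand) was at 36.7, 34.5 and 36.0 CPM with vehicle and at 16.3, 20.9 and 22.3 with quizartinib in RPMI. With hBMSC-CM, PIM3 was at 55.1, 55.0 and 56.6 CPM with vehicle and at 34.3, 34.9 and 36.0 with quizartinib. Unlike PIM1 and PIM2, PIM3 fell with the drug in both media, 1.81-fold in RPMI and 1.59-fold in hBMSC-CM, from a vehicle level that was 1.55-fold higher in hBMSC-CM. Drug-treated cells in hBMSC-CM overlapped vehicle-treated cells in RPMI, with a log2 difference of −0.03 (95% confidence interval −0.18 to 0.12, adjusted p = 0.744). The drug responses in the media differed by 0.19 on the log2 scale (−0.03 to 0.41, adjusted p = 0.152), so a difference of that size was not detectable here, except that with every counted gene in the fit the value was 0.26 with an adjusted p of 0.0284.

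Per length, the balance of the family turned over. With CPM divided by the union of the exons of each gene, PIM3 made up 55.2% ± 1.69 (SD, n = 3) of the PIM RNA with vehicle in RPMI and 60.4% ± 2.90 with quizartinib, but 36.6% ± 0.304 and 19.0% ± 0.291 in hBMSC-CM. PIM1 made up 34.5% and 26.9% in RPMI and 55.4% and 64.1% in hBMSC-CM, so that the leading member was PIM3 in RPMI and PIM1 in hBMSC-CM. The summed level of the 3 genes was 29.4 ± 0.337 and 14.9 ± 1.78 CPM per kb in RPMI and 69.1 ± 1.37 and 84.1 ± 3.09 in hBMSC-CM. With the drug the family sum was thus lower in RPMI and higher in hBMSC-CM, although PIM3 fell in both.

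**Figure D2:**
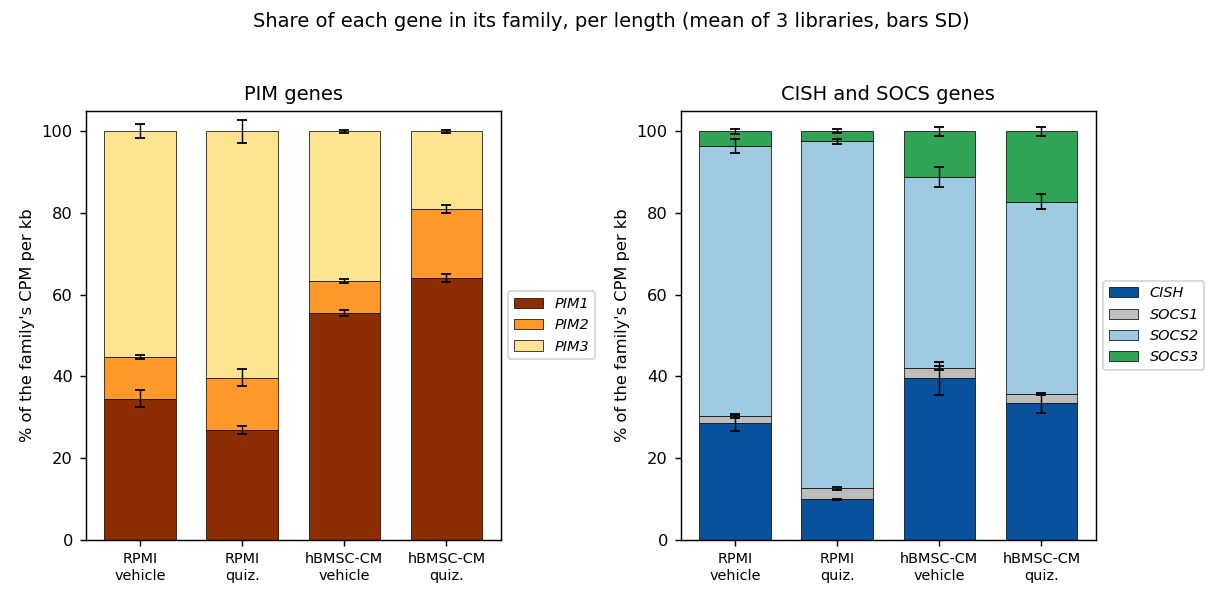
Stacked bars (y axis, % of the summed CPM per kb of the family, from 0) for the PIM genes and for CISH and the SOCS genes in the 4 groups (x axis), as means of 3 libraries with SD bars at each boundary. PIM1 grows from 34.5% to 64.1% and PIM3 shrinks from 55.2% to 19.0% between vehicle in RPMI and quizartinib in hBMSC-CM, and SOCS2 takes 85.0% of its family with quizartinib in RPMI.

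CISH, the founding member of the SOCS family, binds phosphorylated cytokine receptors and competes with STAT5 for them. CISH (ENSG00000114737, chromosome 3, 50606489 to 50611774, minus strand) was at 46.0, 44.5 and 48.7 CPM with vehicle and at 18.8, 19.1 and 18.9 with quizartinib in RPMI. In hBMSC-CM it was at 94.8, 94.0 and 79.4 CPM with vehicle and at 99.1, 115 and 114 with quizartinib. All 4 groups stood apart in the same order as those of PIM1 and PIM2, with a narrow gap between the groups in hBMSC-CM. Quizartinib lowered CISH 2.45-fold in RPMI (log2 fold change −1.29 ± 0.08 SE, adjusted p = 1.08e-12) and raised it 1.22-fold in hBMSC-CM (0.29 ± 0.06, adjusted p = 0.000436). CISH shares 218 bases of exon, 4.31% of its own, with MAPKAPK3 on the other strand, and the use of strand in the counting is not stated. MAPKAPK3 was at 151 ± 2.38 and 99.5 ± 3.76 CPM in RPMI and at 197 ± 2.73 and 165 ± 7.78 in hBMSC-CM, so it fell with the drug in both media.

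SOCS1 encodes a direct inhibitor of JAK kinases, and it was thinly covered, with 19 to 68 counts per library. SOCS1 (ENSG00000185338, chromosome 16, 11254417 to 11256204, minus strand) was at 1.23, 0.743 and 0.876 CPM with vehicle and at 1.67, 1.56 and 2.10 with quizartinib in RPMI. SOCS1 in hBMSC-CM was at 1.75, 1.75 and 2.52 CPM with vehicle and at 2.38, 2.72 and 2.81 with quizartinib. The vehicle libraries in RPMI were below all others, whereas the groups in hBMSC-CM overlapped. SOCS1 was 1.81-fold higher with the drug in RPMI (adjusted p = 0.00168) and 2.05-fold higher between the media with vehicle, in hBMSC-CM, (adjusted p = 0.00123). It was 1.49-fold higher in hBMSC-CM with quizartinib (adjusted p = 0.00906), a call that was lost without replicate 2 of quizartinib in RPMI (adjusted p = 0.0536). The drug response in hBMSC-CM was 0.40 on the log2 scale (95% confidence interval 0.02 to 0.79, adjusted p = 0.0596), and it passed the threshold with library size only, with upper-quartile scaling, without replicate 3 of vehicle or without replicate 1 of quizartinib (adjusted p of 0.0207, 0.0254, 0.0138 and 0.0477).

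SOCS2 encodes a receptor-binding inhibitor best known for restraining growth hormone signaling, and it followed the drug and not the medium. SOCS2 (ENSG00000120833, chromosome 12, 93569814 to 93583487, plus strand) was at 131, 147 and 136 CPM with vehicle and at 208, 206 and 209 with quizartinib in RPMI. In hBMSC-CM it was at 134, 129 and 145 CPM with vehicle and at 202, 193 and 197 with quizartinib. Each drug group was above each vehicle group, and within vehicle the media overlapped. The rise with quizartinib was 1.51-fold in RPMI and 1.45-fold in hBMSC-CM (log2 fold change 0.59 ± 0.05 and 0.54 ± 0.05 SE, adjusted p of 3.39e-10 and 4.31e-09), and the responses differed by −0.05 (95% confidence interval −0.19 to 0.09). With quizartinib every library in hBMSC-CM was below every one in RPMI, but the log2 difference of −0.07 (−0.17 to 0.02) was not called (adjusted p = 0.168), except with upper-quartile scaling (−0.12, adjusted p = 0.031). SOCS2 shares 277 bases of exon, 4.28% of its own, with the antisense gene SOCS2-AS1, which was at 11.3 ± 0.0805 and 22.9 ± 1.20 CPM in RPMI and at 8.97 ± 0.0588 and 16.4 ± 0.583 in hBMSC-CM and rose with the drug too.

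SOCS3 encodes an inhibitor that binds gp130 together with its JAK. SOCS3 (ENSG00000184557, chromosome 17, 78356778 to 78360077, minus strand) was at 2.97, 3.79 and 2.72 CPM with vehicle and at 1.94, 3.02 and 2.54 with quizartinib in RPMI. In hBMSC-CM it was at 13.1, 12.4 and 15.3 CPM with vehicle and at 30.8, 28.1 and 32.4 with quizartinib. The groups in RPMI overlapped at a low level, and the groups in hBMSC-CM stood apart from them and from each other. Against RPMI, SOCS3 was 4.28-fold higher in hBMSC-CM with vehicle and 12.1-fold higher with quizartinib, and within hBMSC-CM the drug raised it 2.24-fold (log2 fold change 1.16 ± 0.10 SE, adjusted p = 1.23e-09). In RPMI the drug response was −0.33 (95% confidence interval −0.70 to 0.03, adjusted p = 0.0858). That value passed the threshold without replicate 2 of quizartinib in RPMI (−0.51, adjusted p = 0.023), with every counted gene in the fit (−0.44, adjusted p = 0.00899) and with edgeR's own filter (−0.39, adjusted p = 0.0459). It was smaller without replicate 1 of quizartinib or replicate 2 of vehicle in RPMI (−0.16 and −0.19, adjusted p of 0.412 and 0.379) and with upper-quartile scaling (−0.23, adjusted p = 0.227).

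Per kb of exon, SOCS2 made up 66.2% ± 1.74 (SD, n = 3) of the RNA of CISH and the SOCS genes with vehicle in RPMI and 85.0% ± 0.577 with quizartinib, and 46.9% and 47.1% in hBMSC-CM. CISH made up 28.5% and 9.91% in RPMI and 39.5% and 33.4% in hBMSC-CM. SOCS3 made up 3.59% and 2.42% in RPMI and 11.1% and 17.2% in hBMSC-CM. CISH and SOCS3 together thus held the smallest part of this feedback family with quizartinib in RPMI. The sizes of these shares rest on the length, and with the longest transcript SOCS2 was at 77.2% and 90.8% in RPMI and 60.4% and 60.7% in hBMSC-CM. With quizartinib in RPMI the longest transcript gave 6.12% for CISH, 1.49% for SOCS3 and 1.62% for SOCS1, in place of 9.91%, 2.42% and 2.63%. For CISH both lengths (5056 and 5042 bases) nearly equal the span of the gene, whereas those of SOCS2 were 6477 and 3733 bases. A shorter CISH transcript, which would give CISH a larger share, was not tried.

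BCL6, a zinc finger repressor that STAT5 is known to hold down, rose with the drug in both media and was lower in hBMSC-CM with either treatment. BCL6 (ENSG00000113916, chromosome 3, 187721377 to 187745725, minus strand) was at 10.8, 11.3 and 11.3 CPM with vehicle and at 28.0, 30.8 and 29.2 with quizartinib in RPMI. BCL6 in hBMSC-CM was at 8.87, 7.56 and 8.59 CPM with vehicle and at 23.0, 20.7 and 22.3 with quizartinib. No group overlapped another, and the drug groups were on top. Quizartinib raised BCL6 2.64-fold in RPMI and 2.62-fold in hBMSC-CM (log2 fold change 1.40 ± 0.07 and 1.39 ± 0.08 SE, adjusted p of 1.02e-13 and 2.43e-12), and the responses differed by −0.01 (95% confidence interval −0.23 to 0.21, adjusted p = 0.951). BCL6 was also the 1 gene of the 9 that was called lower in hBMSC-CM, 1.33-fold with quizartinib (adjusted p = 9.69e-06) and 1.32-fold with vehicle (adjusted p = 0.000863). Its exons share 171 and 316 bases with 2 genes on the other strand.

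OSM encodes oncostatin M, a cytokine of the interleukin-6 family that signals through gp130 with OSMR or LIFR. OSM (ENSG00000099985, chromosome 22, 30262829 to 30266851, minus strand) was at 7.80, 7.63 and 7.56 CPM with vehicle and at 1.55, 1.60 and 1.66 with quizartinib in RPMI. The libraries in hBMSC-CM held 32.5, 30.4 and 29.5 CPM of OSM with vehicle and 35.4, 28.3 and 29.1 with quizartinib. The groups in hBMSC-CM overlapped and stood above both RPMI groups. The drug lowered OSM 4.78-fold in RPMI (log2 fold change −2.26 ± 0.14 SE, adjusted p = 3.49e-12), the largest fall of the 9 genes. In hBMSC-CM the drug response was 0.01 (95% confidence interval −0.14 to 0.16, adjusted p = 0.934). With vehicle OSM was 4.02-fold higher in the conditioned medium (adjusted p = 5.11e-13). Of the receptor chains for this ligand, IL6ST, which encodes gp130, was tested and was higher in hBMSC-CM (log2 fold change 0.45 with quizartinib and 0.33 with vehicle), whereas OSMR had 2 counts and LIFR 1 count in all 12 libraries together. None of 20 other cytokine ligand genes passed the filter, and the highest of them, CLCF1, reached 0.859 CPM.

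**Figure D3:**
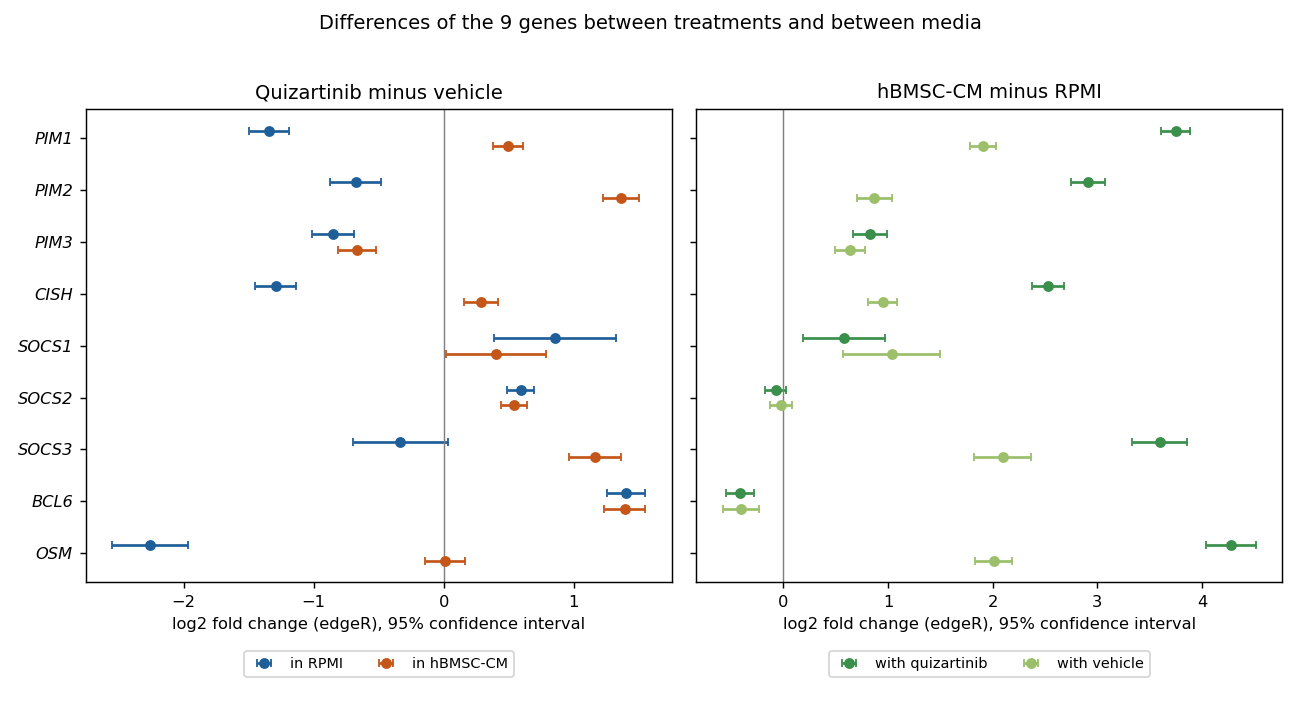
log2 fold changes (x axis, points) with 95% confidence intervals (bars) for the 9 genes (y axis), on the left for quizartinib against vehicle in each medium and on the right for hBMSC-CM against RPMI with each treatment. PIM1, PIM2, CISH, SOCS3 and OSM differ between the 2 colours in both panels, and PIM3, SOCS1, SOCS2 and BCL6 have overlapping intervals.

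Counted together, 8 of the 9 genes were called with quizartinib in RPMI, where 79.3% of all tested genes were called. Of the 9, 3 were higher and 5 lower, beside 40.1% and 39.2% of all genes, and PIM1, CISH, BCL6 and OSM were past 2-fold, as were 21.4% of all genes. In hBMSC-CM 7 of 9 were called, where 67.1% of all genes were. Of these 6 were higher and 1 lower, beside 33.4% and 33.7%, and PIM2, SOCS3 and BCL6 were past 2-fold, as were 6.89% of all genes. The shares called in either direction are near the background and are not a result about these genes. Between the media 8 of 9 were called with vehicle, where 32.1% of all genes were, and 7 were higher and 1 lower, beside 16.6% and 15.5%. PIM1, SOCS1, SOCS3 and OSM were past 2-fold there, as were 1.39% of all genes. With quizartinib 8 of 9 were called too, where 69.8% of all genes were, and 7 were higher and 1 lower, beside 35.5% and 34.3%. PIM1, PIM2, CISH, SOCS3 and OSM were past 2-fold, as were 9.87% of all genes. The 7 that were higher with either treatment were the same genes, PIM1, PIM2, PIM3, CISH, SOCS1, SOCS3 and OSM, and 13.7% of all genes were called higher with both. From the highest log2 fold change of the 12998 genes down, OSM stood at place 3, PIM1 at 11, SOCS3 at 13, PIM2 at 39 and CISH at 71 with quizartinib, and SOCS3 at place 12, OSM at 13 and PIM1 at 16 with vehicle. Both media comparisons and both drug comparisons share groups, so the counts are not independent of each other. The 9 genes were chosen with earlier results of these data known. Their counts and places, here and below, describe these genes and are not independent support for any factor.

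The drug response differed between the media for 5 of the 9 genes, all toward higher values in hBMSC-CM, where 45.2% of all genes were called, 26.1% toward higher and 19.2% toward lower values. The difference on the log2 scale was 2.27 ± 0.16 SE for OSM, 2.04 ± 0.11 for PIM2, 1.84 ± 0.09 for PIM1, 1.58 ± 0.10 for CISH and 1.50 ± 0.20 for SOCS3 (adjusted p of 2.67e-10, 7.47e-12, 1.03e-12, 3.36e-11 and 3.18e-06). All 5 were past 2-fold, as were 5.92% of all genes. PIM1, PIM2 and CISH were called lower with the drug in RPMI and higher with it in hBMSC-CM, which held for 0.839% of all genes. SOCS2 and BCL6 rose in both media, as 29.2% of all genes did, and PIM3 fell in both, as 30.1% did.

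**Figure D4:**
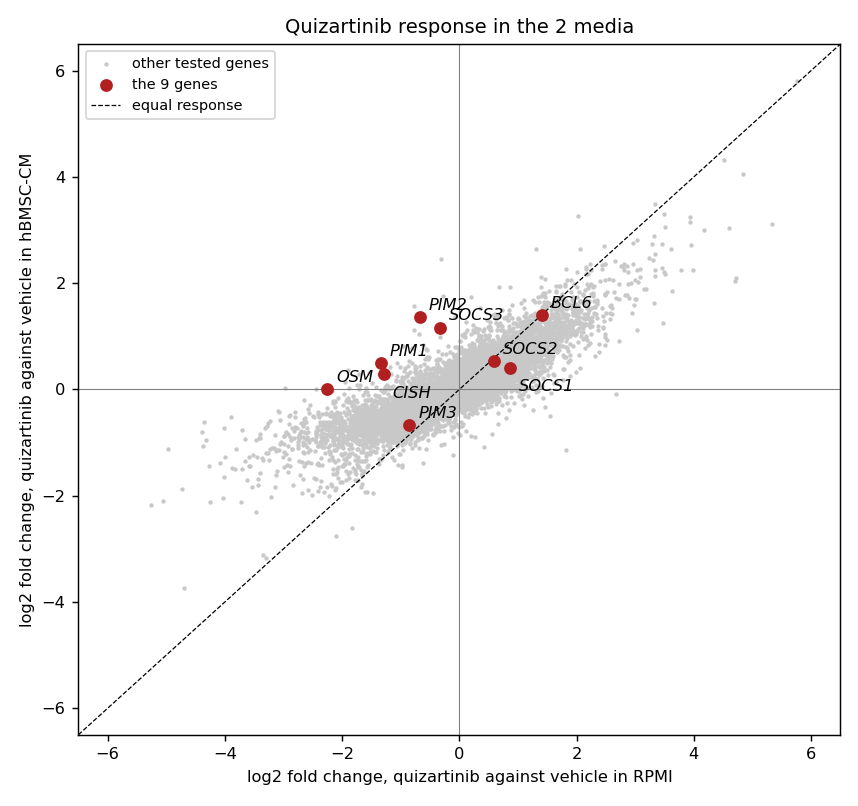
log2 fold change of quizartinib against vehicle in RPMI (x axis) and in hBMSC-CM (y axis) for all 12998 tested genes (grey) and the 9 genes (red), with the line of equal response dashed. OSM, PIM1, CISH, PIM2 and SOCS3 lie above the line and above most grey points at the same x, and PIM3, SOCS2, SOCS1 and BCL6 lie within the grey cloud.

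The level with the drug in hBMSC-CM can also be set against the untreated level in RPMI. There 8 of the 9 genes were called, all higher, where 62.1% of all genes were called, 30.6% higher and 31.6% lower. Of the 9, 6 were past 2-fold, as were 6.28% of all genes. PIM1 was 5.29-fold, PIM2 4.71-fold, SOCS3 9.58-fold, OSM 4.04-fold, SOCS1 2.71-fold and CISH 2.35-fold above vehicle in RPMI, and BCL6 and SOCS2 were 1.98-fold and 1.43-fold above it. PIM3 was the exception at a log2 difference of −0.03.

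The genes whose profile over the 12 libraries came closest to each of the 9 were found by the root-mean-square distance of log2 CPM, each gene centred on its own mean, among 10372 genes whose mean was 5 CPM or more. These distances describe the profiles of these libraries only. The closest to OSM was HBEGF (distance 0.29), followed by PIM1 (0.39) and MYC (0.57). HBEGF was also the closest to PIM1 (0.33), at 41.0 ± 1.35 and 10.4 ± 1.21 CPM in RPMI and 128 ± 2.27 and 120 ± 1.03 in hBMSC-CM. S100A9 was closest to SOCS3 (0.27) and CABLES1 to CISH (0.15), and METRNL was among the closest 3 of PIM1, PIM2 and SOCS3. SLC16A3 was closest to PIM3 (0.10), LINC00899 to BCL6 (0.096) and GPR35 to SOCS1 (0.17, of 10373 genes). C10ORF25 (0.055), ELF2 (0.059) and PDP1 (0.060) were closest to SOCS2. Among the 9 genes, PIM1 and OSM (0.395) and PIM1 and SOCS3 (0.440) were the nearest pairs and BCL6 and OSM (2.22) the farthest.

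Other genes that are commonly given as STAT5 targets mostly fell with the drug in RPMI, as PIM1 and CISH did. Of 10 such genes 9 were tested, and 7 were called lower and 0 higher with quizartinib in RPMI, beside 39.2% and 40.1% of all tested genes, with a median log2 fold change of −0.97 beside 0.025 over all genes. In hBMSC-CM with quizartinib 7 were higher and 0 lower than in RPMI, beside 35.5% and 34.3%, with a median of 1.27 beside 0.0020. The drug response differed for 8 of the 9, all toward higher values in hBMSC-CM, beside 26.1% of all genes. This list and the lists that follow were chosen with earlier results of these data known. Their counts describe the listed genes and are not independent support for any factor. MYC, the growth-promoting transcription factor, had a log2 fold change of −3.09 with the drug in RPMI and 3.56 between the media with it, and the cyclin genes CCND1 (−3.48 and 2.80), CCND2 (−1.72 and 1.88) and CCND3 (−2.06 and 1.27) went the same way. In contrast to PIM1, PIM2 and CISH, the drug still lowered MYC, CCND1, CCND2 and CCND3 in hBMSC-CM, by 0.40, 0.95, 0.47 and 1.02 on the log2 scale. The antiapoptotic gene BCL2L1 was not called in either comparison (0.01 and −0.09).

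Of 15 response genes of STAT3 and gp130, all tested, 13 were called higher and 0 lower in hBMSC-CM with vehicle, beside 16.6% and 15.5% of all genes. With quizartinib 14 were higher and 1 lower, beside 35.5% and 34.3%. The list had median log2 fold changes of 0.50 and 0.92 with vehicle and quizartinib, beside −0.0025 and 0.0020 over all genes. BCL3 (1.66 with quizartinib), CEBPD (1.51) and ICAM1 (1.36) had the largest differences, and IRF1 (−0.54) was the exception. With the drug in RPMI the list was divided, with 4 genes higher, among them FGL2 (1.16) and BCL3 (1.13), and 9 lower, among them VEGFA (−1.28), beside 40.1% and 39.2% of all genes. Of the JAK and STAT genes 10 of 11 were tested, and with the drug in RPMI 8 were higher, beside 40.1% of all genes, led by STAT2 (1.80) and JAK2 (1.26). Between the media with quizartinib 4 were higher, led by JAK3 (0.95), and 4 lower, led by JAK2 (−0.91), which is near the 35.5% and 34.3% of all genes and is not a result about this list. The median of this list between the media was −0.027.

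**Figure D5:**
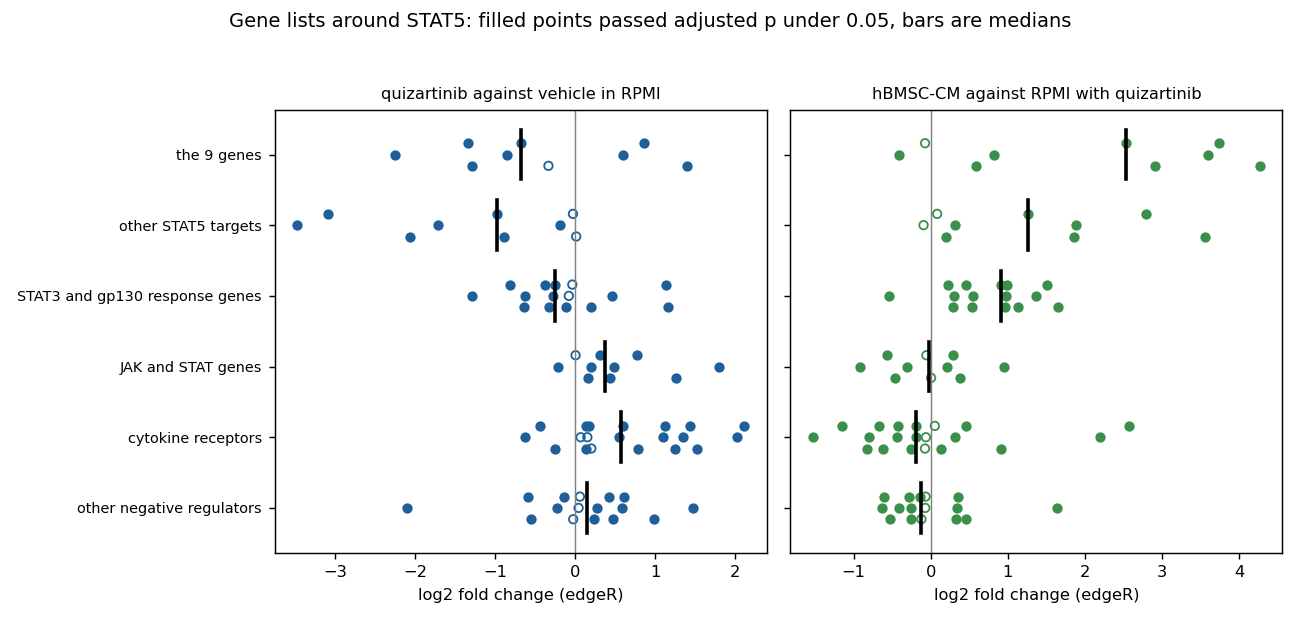
log2 fold changes (x axis) of the tested genes of 6 lists (y axis) with quizartinib in RPMI (left) and between the media with quizartinib (right). Filled points passed an adjusted p under 0.05, open points did not, and black bars are list medians, which for the other STAT5 targets are −0.97 on the left and 1.27 on the right.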

How the data were processed

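The authors trimmed adapters with BBDuk, aligned paired reads of poly-A-selected RNA to the human Ensembl genome (hg38), counted per gene with STAR 2.6.0a, summed identifiers that share a name and deposited the raw counts, which are not normalized. Whether strand was used is not given in the sources used here. From the counts, genes averaging 1 count or more and 1 CPM or more across the 12 libraries were tested (12998 of 30572 with a count), which is the study's filter. All tests used edgeR 4.0.16 in R 4.3.3: TMM, glmQLFit and glmQLFTest, 1 model of 4 group means with 8 residual degrees of freedom, two-sided, Benjamini-Hochberg adjustment, threshold 0.05, for 6 contrasts. CPM are TMM-scaled. The log2 CPM for distances used a prior count of 2. Alternatives were DESeq2 1.42.0, limma-voom (limma 3.58.1), other scalings and filters, an adjusted p under 0.01, fits of only the groups compared, the replicate number as a block, gene length and each library left out. The test was checked on simulated counts. Exon lengths and coordinates came from GENCODE v44 by gene name, and the authors aligned to another release of GRCh38. Promoters came from RefSeq. The members and the lists, written from general knowledge, were chosen with earlier results of these data known. Named were the 9 genes, FLT3, STAT5A and STAT5B, the 3 largest called genes of each list in each direction with quizartinib in RPMI and between the media with quizartinib, and the 3 closest profiles of each gene. Fewer of these are given in the text. Some of the genes that this rule names are not reported here. BCL2L1, MAPKAPK3, SOCS2-AS1, OSMR, LIFR and CLCF1 were added after their values were seen. Total counts per library were 19966546 to 31546104, and intervals cover the spread between these libraries.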

Additional observations from a re-analysis of the deposited data

Results flagged for a closer look

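Each result here is a difference between the media in the response to quizartinib, called by the interaction term of edgeR's quasi-likelihood test. On the log2 scale, the response in hBMSC-CM minus that in RPMI was 1.84 for PIM1, 2.04 for PIM2, 1.58 for CISH, 1.50 for SOCS3 and 2.27 for OSM. PIM1, PIM2 and CISH passed the threshold in opposite directions in the 2 media, SOCS3 in hBMSC-CM and OSM in RPMI. With 3 libraries a group, no outlier test was run on single libraries. With each library left out in turn, 5 of the 9 genes were called for the interaction.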

How the results depend on the processing

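The number of the 9 genes called was 8 to 9 for quizartinib in RPMI, 7 to 8 for quizartinib in hBMSC-CM, 7 to 9 between the media with quizartinib, 8 between the media with vehicle, 5 to 6 for the interaction and 8 for quizartinib in hBMSC-CM against vehicle in RPMI over all alternatives run. Values near 0 changed sign without a call. For OSM with quizartinib in hBMSC-CM the log2 fold change was −0.0046 with RLE factors, −0.023 with every counted gene, −0.015 with edgeR's own filter and −0.0055 with DESeq2, and −0.11 to 0.071 with each library left out. For the BCL6 interaction it was 0.0044 with library size only, 0.061 with every counted gene and 0.023 with edgeR's own filter, and −0.083 to 0.049 with each library left out. For PIM3 with quizartinib in hBMSC-CM against vehicle in RPMI it was 0.058 with library size only and 0.026 with upper-quartile factors. For SOCS2 with every counted gene it was 0.0019 between the media with quizartinib and 0.020 for the interaction, and between the media with vehicle it was −0.070 to 0.026 with each library left out. The cause was not tested. The calls of SOCS1, SOCS3, SOCS2 and PIM3 that were gained or lost stand with their values in the text.

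Library size only moved the median over all genes of the log2 fold change with quizartinib from 0.025 to 0.11 in RPMI and from 0.0094 to 0.11 in hBMSC-CM, and the share of all calls in hBMSC-CM that were higher from 49.8% to 62.8%. For quizartinib in hBMSC-CM against vehicle in RPMI that share went from 49.2% to 62.1%. Upper-quartile factors gave a median of 0.13 in RPMI. No pairing of the libraries by replicate number was detected. The deviations of same-numbered libraries correlated at −0.23 to 0.098 over 18 pairs and 0 were over 0.1. These deviations are from means of 3 libraries, so a weak pairing need not show in them. With the replicate block, 8, 7, 8, 8, 5 and 8 of the 9 genes were called in the 6 contrasts, the same counts as without it. Another gene length moved 25 of the family shares by more than their SD. Depth limits SOCS1 most, with 19 counts in 2 libraries.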

Other observations

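Among cytokine receptor genes, 20 of 28 were tested. With quizartinib in RPMI, 14 were called higher and 3 lower, beside 40.1% and 39.2% of all 12998 genes, with a median log2 fold change of 0.57 beside 0.025 over all genes. IL10RA (2.11), CSF1R (2.02), the receptor for macrophage colony-stimulating factor, and IL13RA1 (1.52) rose most, and IL4R (−0.63), EPOR (−0.44) and IL6ST (−0.25) fell. Between the media with quizartinib, 6 were higher and 11 lower in hBMSC-CM, beside 35.5% and 34.3% of all genes. Among the higher ones were IL7R (2.20) and IL4R (0.92). CRLF2 is counted there too, but it passed the filter only through its level with quizartinib in hBMSC-CM (2.74 CPM, against 0.454 with quizartinib in RPMI), so its difference is not given as a result. Among the lower ones were FLT3 (−1.53) and IL3RA (−1.15), the interleukin-3 receptor chain.

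Of 16 other negative regulators of cytokine signaling, 8 were higher and 5 lower with quizartinib in RPMI, near the 40.1% and 39.2% of all genes. PTPN6, which encodes the phosphatase SHP-1, fell by 2.10 on the log2 scale, SH2B3, the adaptor LNK, fell by 0.58, and the ubiquitin ligase gene CBLB (1.47) and PTPRC (0.98), which encodes CD45, rose. Between the media with quizartinib, 5 were higher, led by PTPN6 (1.63), and 8 lower, beside 35.5% and 34.3% of all genes. These counts are given as values and are not a result about the list.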
